A study of Rattus norvegicus with 5 samples.

Results

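The nuclear receptors outside the Nr4a group were followed on Agilent arrays of Fao cells, a rat hepatoma line, during the first hour of insulin. The set held 36 genes chosen by name (every spot whose gene name in the scanner files was one of them), of 35652 genes or transcripts on the array. A probe was found for 34 of the 36, with 42 probes and 96 spots per array. Nr2c1 and Rarg had no probe under their own name. Before insulin all cultures spent 16 hours without serum under 10 nM of the synthetic glucocorticoid dexamethasone. Insulin was added at 10 nM and cells were taken at 0, 15, 30, 45 and 60 min. Total RNA of each time was hybridised in 1 colour to 1 array. The dexamethasone was common to all 5 samples, the 0 min cells included, and none of the 5 was a time-matched culture without insulin. With 1 array per time no single difference could be tested, and spots of one array measure printing and scanning error only.

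Nuclear receptors are transcription factors, most of which carry a zinc-finger DNA-binding domain and a pocket for a lipid-soluble ligand such as a steroid, thyroid hormone, retinoid, oxysterol, bile acid or fatty acid. Many bind DNA as partners of a retinoid X receptor at pairs of the hexamer AGGTCA, whereas the Nr5a members bind a single copy preceded by TCA. In hepatocytes they control bile acid and sterol metabolism, fatty acid oxidation, gluconeogenesis and the clearance of foreign compounds, and Nr0b1 and Nr0b2 are atypical members without a DNA-binding domain that repress other receptors.

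The upstream regions of 3 members are shown because these genes were among the lower ones at 60 min below. Each runs 5′ to 3′ over 250 bases and ends at the base before the gene start in RefSeq (build GRCr8, plus strand): Nr0b2 at chr5:151062910-151063159, Nr0b1 at chrX:54707408-54707657 and Nr1i3 at chr13:86165170-86165419. Capitals mark AGGTCA or its reverse complement TGACCT, and TCAAGG or its reverse complement CCTTGA.
Nr0b2: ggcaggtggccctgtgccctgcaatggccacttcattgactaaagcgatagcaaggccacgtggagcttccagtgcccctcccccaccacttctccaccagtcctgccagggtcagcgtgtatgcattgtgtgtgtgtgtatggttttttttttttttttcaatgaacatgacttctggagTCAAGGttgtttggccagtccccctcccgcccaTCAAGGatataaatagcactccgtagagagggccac
Nr0b1: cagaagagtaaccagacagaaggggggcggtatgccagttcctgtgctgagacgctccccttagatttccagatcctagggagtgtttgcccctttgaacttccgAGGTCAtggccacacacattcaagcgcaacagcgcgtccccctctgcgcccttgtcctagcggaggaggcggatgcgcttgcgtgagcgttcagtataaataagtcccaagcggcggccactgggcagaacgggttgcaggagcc
Nr1i3: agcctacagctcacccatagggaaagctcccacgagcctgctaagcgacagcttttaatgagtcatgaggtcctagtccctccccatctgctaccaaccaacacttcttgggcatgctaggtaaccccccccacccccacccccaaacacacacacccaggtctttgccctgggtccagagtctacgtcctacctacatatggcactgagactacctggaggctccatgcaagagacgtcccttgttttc
The region of Nr0b2, whose product SHP represses bile acid synthesis, held TCAAGG starting at -69 and at -36. The region of Nr0b1, which encodes DAX-1, held AGGTCA starting at -145, and that of Nr1i3, the constitutive androstane receptor CAR, held neither hexamer. An upstream region was found for 32 of the 36 members. AGGTCA on either strand stood in 4 of these 32 (12.5%; Nr0b1, Nr1d2, Nr5a2 and Rarg) and in 14.1% of all 33469 upstream regions of the same length. TCAAGG stood in 2 of 32 (6.2%; Nr0b2 and Thrb) and in 12.6% of all. The hexamers overlap by the letters AGG where TCA precedes AGGTCA. A match describes letters only and shows no binding.

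Across the arrays 50.87 to 56.45% of the 43379 noncontrol spots were well above background, by the scanner software's own flag, and no spot was saturated. The 0, 15, 30 and 45 min arrays were on 1 slide and in 1 scan, at positions that follow time, and the 60 min array was on another slide and in another scan. Its 75th percentile of signal was 479.3, against 253.5 to 300.2 on the other arrays, and its share of spots well above background was the highest. At 60 min, time and slide therefore cannot be told apart. All 9 hepatocyte markers (among them Apoa1 and Ttr) were well above background on all 5 arrays and none changed 1.5-fold. Markers of other liver cells that were well above background on all 5 arrays were Cd68 for macrophages, Cdh5 for endothelium, Col1a1 for stellate cells and fibroblasts, and Krt19 and Sox9 for biliary cells. Of these lists 1 of 3, 2 of 4, 3 of 5 and 2 of 4 markers were on no array, and both measured endothelial markers were lower at 60 min (Cdh5 by 0.59 and Kdr by 0.68 on the log2 scale; Kdr was named after its value was seen). Whether these markers bear on the results below was not tested.

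A receptor was counted as detected on an array where its brightest probe was well above background. Of the 34 genes, 21 (61.8%) were detected on all 5 arrays, against 46.9% of all genes or transcripts, and 6 (17.6%) on none, against 42.4%. The 21 included the receptors best known from liver: Hnf4a, the bile acid receptor Nr1h4 (FXR), the oxysterol receptors Nr1h2 and Nr1h3 (LXR beta and alpha), the xenobiotic receptors Nr1i2 (PXR) and Nr1i3, Ppara, Nr5a2 (LRH-1), Nr0b2, the glucocorticoid receptor Nr3c1 and the partners Rxra and Rxrb. The others were Esrra, Nr2f1, Nr2f2, Nr2f6, Nr3c2, Nr5a1, Pgr, Rara and Thra. No array detected the estrogen receptors Esr1 and Esr2, the adipose receptor Pparg, Rarb, Rxrg or Thrb. For Esr1, Esr2 and Pparg this rests on a single probe printed 10 times, with 7 to 10 usable spots per array, none of them well above background on any array. Another 7 were detected on some arrays: Nr0b1 and Nr2c2 on 4, Ppard and Vdr on 3, Rora on 2, and Nr1d2 and Nr6a1 on 1.

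**Figure D1:**
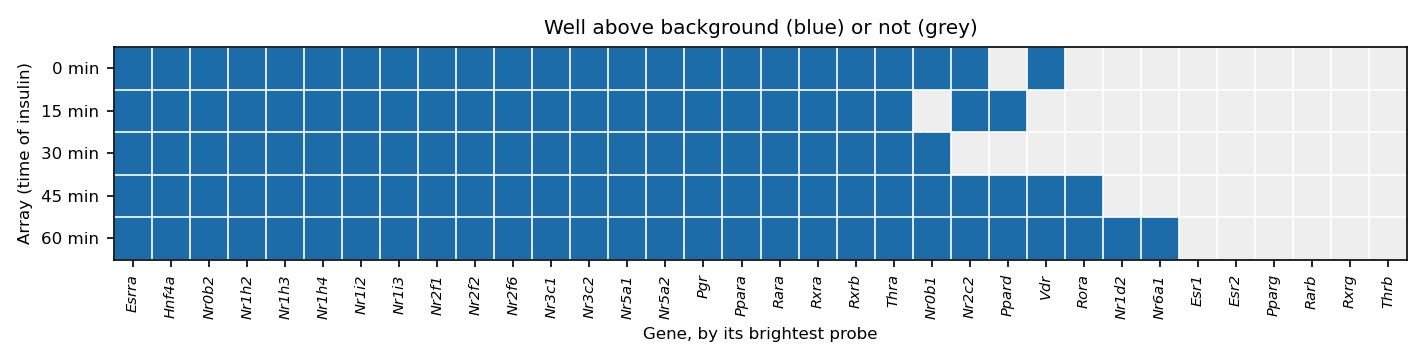
Detection of the 34 receptor genes with a probe (columns) on the 5 arrays (rows, minutes of insulin). Blue means that the brightest probe was well above background and grey that it was not. The 60 min array alone detected Nr1d2 and Nr6a1, and 6 genes are grey in every row.

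Levels are given as log2 of the processed signal over each array's 75th percentile, so 0 is that percentile, and a change is the level at a later time minus that at 0 min. Levels of different genes are not compared, because each rests on its own probe. Genes spotted 10 times gave a technical SD between spots of 0.121 to 0.139, so a change between single spots carries an SD of 0.184 to 0.196 from that source. Where only one of both arrays detected a gene, its change is called a bound. On the other array the probe counts at its own signal, or at the dimmest detected signal of that array where this is higher. A bound is therefore a difference between a detected and an undetected reading, and not a strict lower limit. A change of at least 1.5-fold (0.585 on the log2 scale) was counted.

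Few receptor genes changed 1.5-fold at any time. At 15 min 0 of 25 measured members were higher and 1 (Vdr, a bound) was lower, where 2.38% and 2.71% of all 18552 measured genes were. At 30 min 0 of 24 were higher and 1 (again Vdr, a bound) was lower, beside 2.31% and 2.77% of 18443 genes. At 45 min 1 of 26 was higher (Rora, a bound) and 0 were lower, beside 3.13% and 3.19% of 18581 genes. At 60 min 2 of 28 were higher (Ppard and Rora, both bounds) and 2 were lower (Nr0b1 and Vdr), beside 6.16% and 4.98% of 19596 genes. With so few members each of these counts lies near the share among all genes. Over changes measured on both arrays, 0 members passed at 15, 30 and 45 min, and 0 higher and 2 lower of 24 did at 60 min. Among all genes measured so, 613 were higher and 663 lower of 17832 at 60 min. The earlier numbers were 185 and 164 of 17268 at 15 min, 196 and 158 of 17160 at 30 min, and 300 and 184 of 17241 at 45 min.

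Below that threshold, more receptors lay under their starting level at 60 min than at the earlier times. The count under the 0 min level was 12 of 22 at 15 min, 12 of 22 at 30 min, 11 of 24 at 45 min and 18 of 24 at 60 min. Among all genes the shares were 42.9, 44.6, 44.5 and 47.3%, so that 60 min was the time at which receptors and all genes differed most. The median change of the receptors was -0.011, -0.012, 0.016 and -0.135 at the 4 times in order, and that of all genes 0.030, 0.025, 0.025 and 0.020. Set against the 15 min array in place of the 0 min array, 12 of 23 receptors were lower at 60 min (52.2%, against 50.2% of all genes). Without a filter on dim probes 23 of 34 were lower than at 0 min (67.6%, against 67.0% of all genes). The count of lower members at 60 min relative to all genes thus depends on which earlier array it is set against and on the filter.

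**Figure D2:**
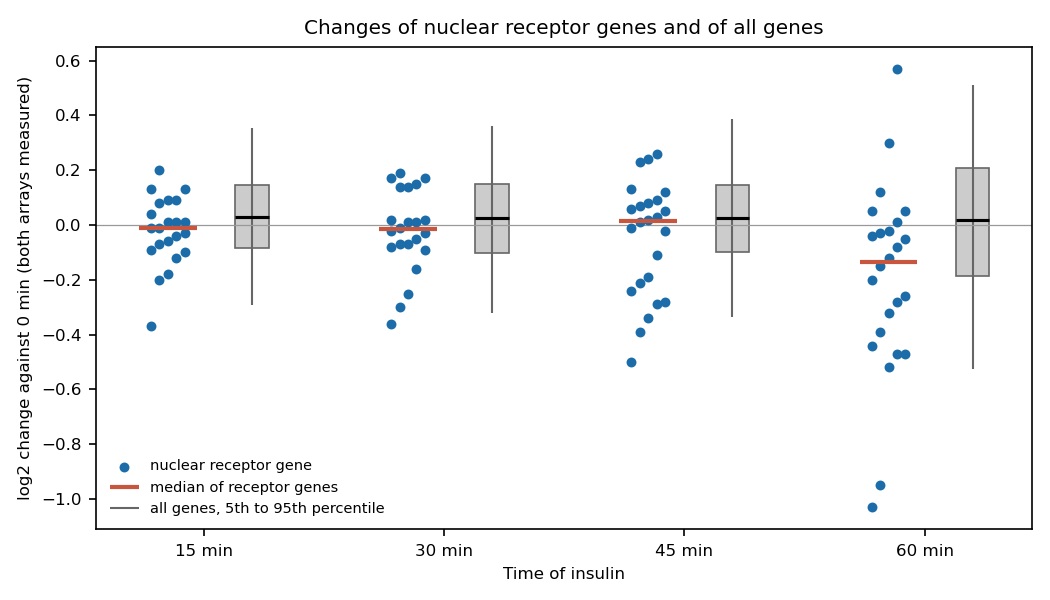
log2 change against 0 min (vertical axis) at 15, 30, 45 and 60 min for receptor genes measured on both arrays (points), with their median in red, beside all genes measured in the same way (box, quartiles and median; line, the percentiles named in the legend). The points spread around 0 at the first 3 times, and 18 of 24 lie below 0 at 60 min.

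The receptors moved little in the first 45 min. Over the first 4 arrays, all on 1 slide, the median range of a receptor (highest minus lowest level) was 0.180, against 0.229 for the 16706 genes detected on all 5 arrays. Over all 5 arrays it was 0.370, against 0.358, with members between 0.09 (Nr2f6) and 0.70 (Nr1h3). From 45 to 60 min, 16 of the 21 members detected throughout stepped down and 5 up (Nr1h2, Nr2f1, Nr2f2, Nr3c2 and Rara), with a median step of -0.12 for members and 0.0 for all genes, of which 49.5% stepped down. The 3 earlier steps split 11 down and 10 up, 10 down and 11 up, and 10 down and 11 up.

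**Figure D3:**
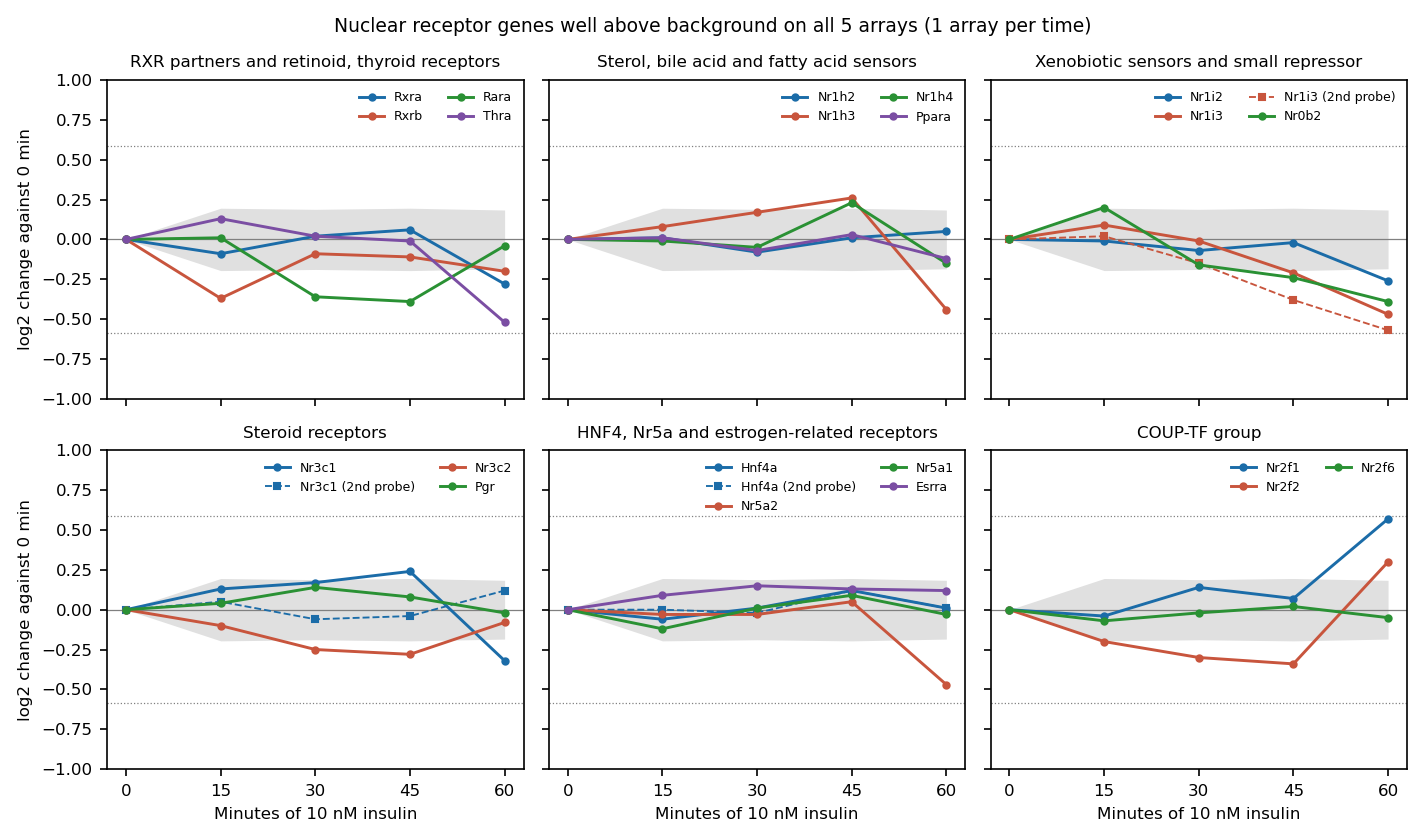
log2 change against 0 min (vertical axis) over minutes of insulin (horizontal axis) for the 21 receptor genes detected on all 5 arrays, grouped by role, with 1 array per time; grey is ± the SD of a change from spot error (0.184 to 0.196), dotted lines are 1.5-fold and dashed lines second probes. Most lines stay near 0 to 45 min, and at 60 min Thra, Nr5a2, Nr1i3 and Nr1h3 lie below 0 while Nr2f1 and Nr2f2 lie above it.

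Among receptors for steroids, Nr3c1, the receptor that dexamethasone binds, was measured by a probe with 10 spots (rn4, chr18:32371565-32371626). Its spots averaged 1.542 ± 0.122, 1.674 ± 0.114, 1.714 ± 0.078, 1.781 ± 0.072 and 1.219 ± 0.166 at 0, 15, 30, 45 and 60 min (SD over 10 spots, 9 at 45 min). The mean was thus higher than at 0 min on each of the next 3 arrays and lowest at 60 min. The change was 0.239 ± 0.045 at 45 min and -0.323 ± 0.065 at 60 min (SE over spots, which leaves out any spread between cultures or arrays). A second Nr3c1 probe at chr18:32371932-32371991 did not show either move, with changes of 0.05, -0.06, -0.04 and 0.12, so the probes disagree in sign at 60 min. The mineralocorticoid receptor Nr3c2 had levels of -0.75, -0.85, -1.0, -1.03 and -0.83 over the 5 times, a dip of 0.28 at 45 min. These rest on 1 of its probes, and its other probe was well above background on no array. The progesterone receptor Pgr stayed between -3.35 and -3.20, detected by 1 of its probes, and its other probe was on no array.

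Hnf4a, an activator of much of the hepatocyte program, hardly moved. Its 10-spot probe (chr3:154482699-154482758) averaged -0.894 ± 0.113, -0.949 ± 0.089, -0.879 ± 0.064, -0.774 ± 0.056 and -0.882 ± 0.090 at 0, 15, 30, 45 and 60 min (SD over 10 spots, 9 at 60 min). The 60 min change was 0.013 ± 0.047 (SE over spots), and the second Hnf4a probe read -1.65, -1.65, -1.67, -1.54 and -1.64, the same small maximum at 45 min. Esrra, the estrogen-related receptor alpha that acts on mitochondrial genes, read 4.90, 4.99, 5.05, 5.04 and 5.03, and every change was at most 0.15. Nr5a2, an activator of bile acid synthesis genes in liver, held between -0.12 and -0.04 through 45 min and read -0.55 at 60 min. That is 1.39-fold below the 0 min level, with the first 4 arrays within 0.1 of each other. Its adrenal and gonadal relative Nr5a1 stayed between -2.61 and -2.41 on all 5 arrays.

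**Figure D4:**
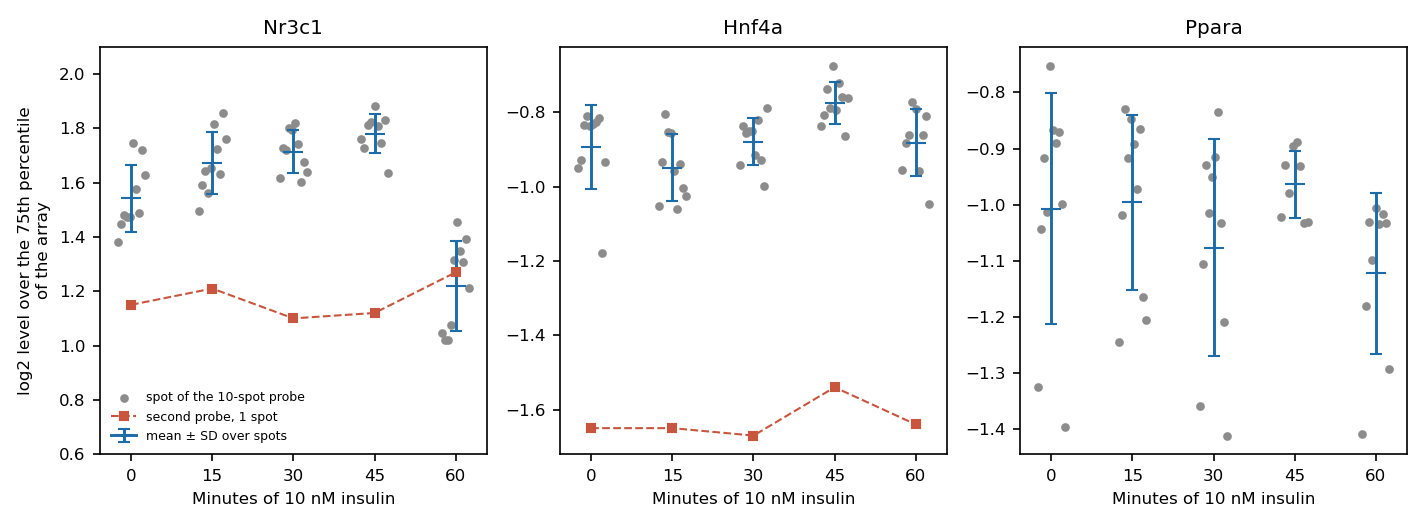
Every usable spot of the probes printed 10 times for Nr3c1, Hnf4a and Ppara (points; vertical axis, log2 signal over the array's 75th percentile) by minutes of insulin (horizontal axis), with the mean and SD over spots in blue and second probes of 1 spot in red. The Nr3c1 spots are lowest at 60 min (mean 1.219, against 1.542 at 0 min), and the Hnf4a and Ppara means differ by at most 0.120 from 0 min.

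Of the receptors for bile acids and sterols and their repressor, Nr0b2, Nr1h4 and Nr1h3 were below their 0 min levels at 60 min. Nr0b2 (chr5:151524722-151524781), the repressor whose upstream region is printed above, read 3.42, 3.62, 3.25, 3.17 and 3.02. It was highest at 15 min and lower on each array after that, 1.31-fold below 0 min at 60 min. That change was -0.39, and -0.19 with normexp, another background correction fitted to the mean and local background signals. Normexp here also added an offset of 50 to every signal before scaling, which by itself alters log2 changes of dim probes. For dim probes normexp therefore cannot separate the offset from the background correction. Nr0b2 was not dim, with unscaled signals of 3210 at 0 min and 3900 at 60 min. Why its change differed with normexp was not tested. Nr1h4, the bile acid sensor that activates Nr0b2 transcription, read -0.86, -0.87, -0.91, -0.62 and -1.01, highest at 45 min and lowest at 60 min. Nr1h3, which with its oxysterol ligands activates lipogenic and cholesterol export genes, read 5.41, 5.49, 5.58, 5.67 and 4.97. It was thus 0.26 above 0 min at 45 min and 0.44 below it at 60 min, the widest range among receptors detected throughout. Its paralog Nr1h2 stayed between 2.60 and 2.73.

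Both xenobiotic receptors were lower at 60 min than at 0 min. Nr1i3 (chr13:87107161-87107220) read -3.23, -3.14, -3.24, -3.44 and -3.70. Its second probe, which overlaps the first in the genome, read -3.51, -3.49, -3.66, -3.89 and -4.07. The probes moved alike, with changes at 60 min of -0.47 and -0.57, which are 1.38-fold and 1.48-fold lower. With normexp the first probe's change at 45 min was 0.07, against -0.21 here. Nr1i2 held between 2.14 and 2.22 through 45 min and read 1.96 at 60 min, 1.20-fold below 0 min.

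The fatty acid receptor Ppara changed at every time by less than the SD between its spots at 0 min. Its 10-spot probe averaged -1.007 ± 0.205, -0.996 ± 0.156, -1.076 ± 0.194, -0.964 ± 0.060 and -1.122 ± 0.143 (SD over 10 spots, 8 at 45 min and 9 at 60 min), and the change at 60 min was -0.115 ± 0.081 (SE over spots). Ppard, the broadly expressed family member, was detected at 15, 45 and 60 min with levels of -3.87, -3.84 and -3.60 and was not well above background at 0 and 30 min. As a bound, the 60 min level of Ppard lay 1.59-fold above its undetected 0 min reading.

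Of the retinoid and thyroid hormone receptors, Thra changed most at 60 min. Thra (chr10:87537328-87537387), the alpha thyroid hormone receptor, read 0.48, 0.61, 0.49, 0.47 and -0.04. The first 4 arrays lay within 0.14 of each other and the 60 min level was 1.43-fold below that at 0 min. The shared partner Rxra read -1.04, -1.13, -1.03, -0.98 and -1.33, lowest at 60 min by 0.28 against 0 min. Rxrb read -0.73, -1.10, -0.82, -0.84 and -0.93, and its lowest level was at 15 min. Rara, a retinoic acid receptor, read -3.28, -3.27, -3.64, -3.67 and -3.32, lowest on the 30 and 45 min arrays. With normexp its changes at 30 and 45 min were 0.04 and -0.03. Its unscaled signals were 30.9, 20.3 and 20 at 0, 30 and 45 min. The normexp offset of 50 alone alters changes between such signals, so whether the dip depends on the background correction was not tested.

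Nr2f1 and Nr2f2, COUP transcription factors that repress in many tissues and compete for AGGTCA sites, were above their 0 min levels at 60 min. Nr2f1 (chr2:5765431-5765490; COUP-TFI) read -0.58, -0.62, -0.45, -0.52 and -0.01, and the 60 min level was 1.48-fold above that at 0 min and above all 4 earlier arrays. A second Nr2f1 probe was detected at 30 min only, so it has no change at 60 min. Nr2f2 (chr1:125280995-125281054; COUP-TFII) read -0.44, -0.64, -0.73, -0.78 and -0.13. It was lower than at 0 min on the 15, 30 and 45 min arrays, and 1.23-fold higher at 60 min. Nr2f6, the third relative, stayed between 3.05 and 3.14. Nr2c2, the orphan receptor TR4, read -3.69, -3.87, -4.18 and -3.63 at 0, 15, 45 and 60 min and was not well above background at 30 min; it was 1.41-fold below 0 min at 45 min.

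The genes that passed 1.5-fold were all dim. The normexp offset of 50 exceeded their unscaled processed signals. It was added before division by each array's 75th percentile, so it alone alters their changes in the normexp values below. This need not be towards 0: the 60 min change of Pgr, also dim, was -0.32 with normexp, against -0.02 here. Whether the normexp values below differ from what the offset alone gives was not tested. Nr0b1 (chrX:73010187-73010246) read -3.49, -3.30, -3.78 and -4.52 at 0, 30, 45 and 60 min and was not well above background at 15 min, so that at 60 min it was 2.04-fold below 0 min. Its unscaled processed signal was 20.9 at 60 min, against 26.7 at 0 min, on arrays whose 75th percentiles were 479.3 at 60 min and 300.2 at 0 min. With normexp the change was -0.53 and no longer passed. Vdr, the vitamin D receptor (chr7:136570059-136570118), read -3.79, -3.98 and -4.74 at 0, 45 and 60 min and was not well above background at 15 and 30 min. It was 2.33-fold and 2.15-fold lower at 15 and 30 min as bounds. Its levels at 45 and 60 min were 1.14-fold and 1.93-fold below that at 0 min. With normexp, after repair of 6 distorted spots of the 15 min array, its log2 changes were -0.15, -0.13, 0.02 and -0.62, so that the differences at 15 and 30 min no longer passed. The order over time was therefore uneven, and against the 15 min array the 60 min change had the opposite sign (0.28). Rora, which acts at clock genes, was detected only at 45 and 60 min, with levels of -3.81 and -3.91. As bounds these were 1.73-fold and 1.61-fold higher than at 0 min. With normexp the 45 min change of Rora was 0.47 and no longer passed, and at 60 min neither Rora nor Ppard had a bound above 0 min. Nr1d2, also a clock receptor, and Nr6a1, an orphan receptor of germ cells, were detected at 60 min only. They were 1.21-fold and 1.24-fold higher than at 0 min as bounds.

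A straight line over the 5 arrays, fitted with limma across 20504 genes, gave no gene a Benjamini-Hochberg adjusted p under 0.05 (0% of genes), and so none of the 28 receptors. At an unadjusted p under 0.05 stood 5 of 28 receptors and 8.74% of all genes, 1792 in number. Of the 5, Rora and Ppard entered the fit through the arrays that detected them and rest on undetected values elsewhere, so their slopes are not given. Over genes detected on all 5 arrays it was 3 of 21 receptors and 10.2% of all genes. Nr2f1 had a slope of 0.50 ± 0.20 log2 units per 60 min (SE; limma adjusted p = 0.563). Nr1i3 had a slope of -0.50 ± 0.17 (limma adjusted p = 0.543) and Nr0b2 of -0.49 ± 0.17 (limma adjusted p = 0.557). The fit has 3 residual degrees of freedom and takes scatter around a line as its error, so it is insensitive to moves at a single time, such as those of Thra or Nr1h3.

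Few genes of proteins that receptors recruit passed 1.5-fold. None of the corepressors measured (8 or 9 of 9) passed 1.5-fold at any time, with medians of -0.016, -0.151, 0.059 and 0.008 at 15, 30, 45 and 60 min. Sin3a, a scaffold of deacetylase complexes, had -0.26, -0.39, -0.48 and -0.13. Of 13 coactivators measured, 1 was past 1.5-fold, Pprc1, a PGC-1 relative, which was 2.03-fold higher at 60 min after changes of -0.06, 0.09 and 0.31. The coactivator medians were 0.053, 0.073, -0.042 and 0.060. Ncoa6 had changes of -0.08, -0.16, -0.28 and -0.44 by its brightest probe, while one other probe gave 0.64 and another -0.59 at 60 min. Of 8 chaperones that hold steroid receptors, 1 was past 1.5-fold, the co-chaperone Dnajb1, 1.60-fold higher at 60 min. Its log2 change at that time was 0.68 by this probe and 0.23 by another. Their medians were -0.007, 0.088, -0.029 and -0.070, and Fkbp5, an immunophilin of the receptor complex, had -0.15, -0.20, -0.05 and -0.29.

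Of 10 or 11 glucocorticoid receptor targets measured, 1 was higher at 15 min, 0 passed at 30 min, 2 were lower at 45 min, and 2 were higher and 3 lower at 60 min, where 6.16% and 4.98% of all genes were, with medians of -0.135, -0.114, -0.048 and -0.382. G6pc1, the catalytic subunit of glucose 6-phosphatase, read 5.32, 5.31, 4.78, 4.59 and 3.40, and was 3.79-fold below 0 min at 60 min. Dusp1, a MAP kinase phosphatase, had changes of 0.84, 0.30, -0.69 and -0.93, higher early and lower late. Angptl4, a lipoprotein lipase inhibitor that is a target of PPARs too, had 0.27, -0.29, -0.33 and -1.09. The genes higher at 60 min were the clock gene Per1 (1.68-fold) and Zbtb16 (1.51-fold, a bound), both named after their values were seen.

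Few targets of the other receptors passed 1.5-fold. Of 6 FXR and SHP targets measured, of which Nr0b2 is one, 1 was lower at 15 min and 1 at 60 min, with medians of 0.090, 0.060, 0.019 and -0.363. Both calls were Cyp7a1, the rate-limiting enzyme of bile acid synthesis, with levels of -1.53, -2.35, -1.47, -1.85 and -2.28 and so no steady course. None of 6 LXR targets passed at any time (medians 0.005, -0.055, 0.047 and 0.186), among them the sterol exporter gene Abcg8 with -0.37, -0.24, -0.30 and 0.24 and the desaturase gene Scd with 0.07, 0.13, 0.11 and 0.16. Of 12 or 13 PPAR targets, 2 were lower at 60 min (medians 0.159, 0.034, 0.114 and -0.045), which were Angptl4 and the pyruvate dehydrogenase kinase Pdk4 (1.64-fold lower; named after its value was seen), while the fatty acid hydroxylase Cyp4a2 had 0.17, 0.21, 0.23 and 0.31. None of 6 CAR and PXR targets passed at any time (medians 0.109, 0.089, 0.077 and 0.004), although Nr1i3 and Nr1i2 were lower at 60 min. Their named members were Cyp3a9, with 0.13 at 60 min, and Ugt1a1, with 0.29. None of 8 HNF4A targets passed (medians 0.175, 0.078, 0.132 and 0.059), with changes at 60 min of 0.34 for Apoc3 and 0.29 for Ttr. Of 6 thyroid, retinoid and vitamin D targets, 1 was lower at 60 min, the deiodinase gene Dio1 (1.52-fold; named after its value was seen), with medians of 0.119, 0.078, 0.133 and -0.006. Thrsp, a lipogenic thyroid hormone target, had 0.55, 0.40, 0.38 and 0.01. Klf9 had 0.25, 0.15, 0.35 and 0.31 by its brightest probe, while another probe gave -0.25, 0.01, -0.11 and 0.01.

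Among nuclear receptors that are not members, Nr4a1 and Nr4a3 passed 1.5-fold. Of 4 that were measured, 1 was lower at 15 min, 2 were higher at 30 min, 2 at 45 min and 1 at 60 min (medians -0.339, 0.40, 0.363 and 0.124). Nr4a3, an immediate early orphan receptor, read -2.32, -2.90, -1.10, 0.01 and -0.10, and was 4.67-fold above 0 min at 60 min. Nr4a1 had changes of -1.08, 0.64, 0.61 and 0.43. The largest change of a member measured on both arrays was 0.374 at 15 min (Rxrb), 0.363 at 30 min (Rara), 0.497 at 45 min (Nr2c2) and 1.028 at 60 min (Nr0b1). These differences between receptors have no replicate check.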

How the data were processed

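Total RNA (700 ng) was labelled with Cy3 and hybridised to Agilent rat arrays, 1 per time, per the labels' protocols. The deposited intensities are processed signals that the authors made with Feature Extraction 9.5.3.1, already background-subtracted, with probe coordinates on rn4, per the file headers. The deposited log2 value table was used as an alternative only: its values correlated at 0.9994 to 0.9999 with the scanner values, and its column medians were 0. No genome was used here, so exons and UTRs were not assigned.

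Controls were dropped, as were the 100 to 163 spots that the software called outliers on an array. Signals were divided by the array's 75th percentile and averaged over a probe's spots, and the brightest probe stood for a gene. Values under an array's detection floor (its lowest detected signal) were raised to that floor before log2 was taken. Of the 41012 probes, 10835 were named by accession, 5201 by symbol, 3488 by an older symbol and 21488 by the name in the file. The slope was fitted with limma 3.58.1 (R 4.3.3) with 1 floor for all arrays. It was also tested on simulated data. Normexp and the quantile normalization for the slope were computed with limma too. The rest was computed in Python 3.11.15 with pandas 2.3.3. The precision is limited by the number of arrays.

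All members are named. From the other lists, genes changed 1.5-fold the same way at 2 or more times, and the 2 detected members with the largest mean change at 30, 45 and 60 min, are named, except 1 corepressor that is not reported here. The members and lists were chosen with earlier results of these data known. Alternatives were other scalings, background, probe and detection rules, threshold, the 15 min array as starting level, and each array left out of the slope.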

Additional observations from a re-analysis of the deposited data

How the results depend on the processing

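With 1 array per time there was no replicate to leave out at a single time and genes near the background limit the counts. The number of receptors past 1.5-fold at 15 min (1) was 8 of 23 with normexp, where 5921 genes were higher and 2622 lower of 17800. On that array normexp was distorted by 6 spots with a local background over 1000. With those repaired, an alternative added after seeing the data, 57 genes were higher and 71 lower of 18234, and the number of receptors was 0. It was also 0 with the deposited log2 table, with detection on all 5 arrays, and over changes measured on both arrays, which was added after seeing the data too. At 30 min (1) it was 0 under normexp, repaired normexp, the deposited table, detection on all 5 arrays and both arrays only. At 45 min (1) it was 0 under the same 5 and at 2-fold. Among all genes with normexp, 88 were higher and 58 lower of 17975 at 30 min, and 143 and 70 of 18254 at 45 min. At 60 min (4) the number of receptors was 1 with normexp, 1 with the repair, 0 with the deposited table and 0 with detection on all 5 arrays. It was 1 at 2-fold and 2 over both arrays only. Among all genes at 60 min, 345 were higher and 755 lower of 18314 with normexp, repaired or not. With detection on all 5 arrays 553 were higher and 526 lower of 16706. Where the filter on detection is stricter, the genes past the threshold are those removed. The deposited table gave changes for 21 members, as many as were detected on all 5 arrays. It held none for Nr0b1, Vdr, Rora or Ppard, so its counts of 0 are no separate check. For the other settings the cause was not tested, and the normexp offset of 50 alone alters changes of dim genes. Against the 15 min array, Vdr at 60 min reversed to 0.28. The median receptor change at 60 min stayed between -0.263 and -0.055 under all alternatives, while that of all genes lay between -0.259 and 0.024. With normexp it was -0.263 for receptors and -0.065 for all genes, and against the 15 min array -0.055 and -0.001. Without a filter on dim probes the receptor median of -0.135 lay above the -0.259 of all genes. The receptors below their starting level at 60 min numbered from 12 of 23 (52.2%, against 50.2% of all genes), with the 15 min array as starting level, to 23 of 34 (67.6%, against 67.0%), without a filter on dim probes. Under every other setting the share was higher, 72.0 to 79.2% of receptors, beside 46.7 to 57.7% of all genes.

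Over all genes, the share of higher calls was 46.8, 45.5, 49.5 and 55.3% at 15, 30, 45 and 60 min. It was 69.3, 60.3, 67.1 and 31.4% with normexp, 54.5, 59.7, 54.8 and 40.5% without a filter on dim probes, 63.3% at 45 min with the deposited table and 62.5% at 45 min with detection on all 5 arrays. Without the filter the median of all genes moved to 0.156, 0.227, 0.187 and -0.259. No receptor had an adjusted p under 0.05 for the slope with any array left out (unadjusted p under 0.05 for 3 to 7 of 28 and for 6.45 to 11.6% of all genes), with detection on all 5 arrays (4 of 16706 genes passed, 0.0239%) or with quantile normalization. Leaving out the 60 min array, the only one on its slide, stands in for a slide block and gave 7 of 28, beside 8.47% of all genes. Those 28 include Nr1d2 and Nr6a1, which no array kept in that fit detected. Rora, with the smallest p there, was detected at 45 min alone among the arrays kept. The number is therefore not read as a result about the receptors. No paired analysis was possible because each time had 1 array.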

Other observations

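Nr2c1, the orphan receptor TR2, had no probe under its own name, but 1 probe whose accession the RefSeq table assigns to it is named Psg4 in the scanner files. That probe read 1.53, 1.32, 1.43, 1.55 and 1.56 at 0, 15, 30, 45 and 60 min, with a change of at most 0.21 in size, and it was well above background on all 5 arrays. Counting it with the receptors left every count past 1.5-fold as it was and gave 18 of 25 lower at 60 min.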
